A study of Mus musculus with 15 samples.

Results

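Transcripts of 8 regulators of mRNA decay and cell proliferation were followed in mouse whole blood after dosing with ABBV-075 (mivebresib), a small-molecule inhibitor of the BET bromodomain proteins that read acetylated histones. The genes were Zfp36, Zfp36l1, Zfp36l2, Btg1, Btg2, Pnrc1, Dcp2 and Xrn1, and every probe set annotated with 1 of these symbols alone was taken, which gave 18 of 45037 non-control probe sets, for 8 of 18193 genes that a probe set names alone. A probe set is a group of short array probes whose signals are combined into 1 value. The 3 groups of 5 mice received vehicle, ABBV-075 at 1 mg/kg or ABBV-075 at 5 mg/kg, blood was drawn 6 h after dosing, and 1 Affymetrix array was run per mouse. Strain, sex, age and route are not given in the labels. All 8 were named with earlier results of these data known, and Pnrc1 was chosen by its higher values at 5 mg/kg, so its values are given as a description without a test. Of the 18 probe sets, 14 lay above the intensity floor of 16 on at least 5 arrays and were tested, with at least 1 for each gene.

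Most of these genes act in one pathway of mRNA decay. Proteins of the Zfp36 family bind AU-rich elements of short-lived mRNAs, many of them encoding cytokines, and bring in the CCR4-NOT complex that shortens the poly(A) tail. Btg1 and Btg2 contact the deadenylase subunits of the same complex and restrain cell division, and both are linked to lymphocyte quiescence. After deadenylation, Dcp2 removes the 5′ cap and Xrn1 degrades the uncapped mRNA from its 5′ end. Pnrc1 was first described as a nuclear receptor coactivator, and the human protein has been reported to bring decapping factors to the nucleolus.

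Promoter sequence from RefSeq (GRCm38.p6) was searched for 6 of the 8 genes, and not for Zfp36l2 and Dcp2. The 250 bases before the gene start are printed for 4 of the 6: Pnrc1, Btg2, Btg1 and Zfp36. Pnrc1 and Btg2 had the largest differences at 5 mg/kg, the level of Btg1 followed that of Pnrc1, and Zfp36 is the founding member of its family. Capitals mark matches, on either strand, to the TATA box (TATAAA), the CCAAT box (CCAAT), the half-site of the cyclic AMP response element (TGACG, of which the full palindrome TGACGTCA holds 2 overlapping copies) and the CArG box, to which serum response factor binds.
Pnrc1 promoter, chr4:33248788-33249037, - strand: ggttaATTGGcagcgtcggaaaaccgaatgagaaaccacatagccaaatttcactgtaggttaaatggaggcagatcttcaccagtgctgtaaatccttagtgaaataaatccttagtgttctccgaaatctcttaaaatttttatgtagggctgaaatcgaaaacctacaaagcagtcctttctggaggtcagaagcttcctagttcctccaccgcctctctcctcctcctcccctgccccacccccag
Btg2 promoter, chr1:134079156-134079405, - strand: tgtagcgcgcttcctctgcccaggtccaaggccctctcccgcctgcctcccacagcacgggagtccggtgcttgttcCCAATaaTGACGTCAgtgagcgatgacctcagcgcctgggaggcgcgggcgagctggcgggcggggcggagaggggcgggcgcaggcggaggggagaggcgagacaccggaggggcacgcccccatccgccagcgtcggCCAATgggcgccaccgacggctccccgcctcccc
Btg1 promoter, chr10:96616751-96617000, + strand: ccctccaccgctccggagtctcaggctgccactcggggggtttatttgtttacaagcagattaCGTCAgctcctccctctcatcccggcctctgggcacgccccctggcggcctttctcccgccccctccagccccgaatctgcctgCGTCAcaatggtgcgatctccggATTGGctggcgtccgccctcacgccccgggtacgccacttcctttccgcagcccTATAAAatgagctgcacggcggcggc
Zfp36 promoter, chr7:28379229-28379478, - strand: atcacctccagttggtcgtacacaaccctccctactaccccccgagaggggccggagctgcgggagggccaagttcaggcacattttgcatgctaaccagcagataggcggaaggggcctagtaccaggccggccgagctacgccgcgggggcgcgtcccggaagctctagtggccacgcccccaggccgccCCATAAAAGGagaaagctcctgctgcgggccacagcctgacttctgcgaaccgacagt
The Pnrc1 window held 1 match, a reversed CCAAT 245 bases before the start. The Btg2 window held the full palindrome TGACGTCA starting 166 bases before the start, which is found in the same window of 1.55% of 32851 promoters, and CCAAT 173 and 34 bases before the start. The Btg1 window held TATAAA 26 bases before the start, a reversed CCAAT and the half-site in reverse 187 and 103 bases before it. The Zfp36 window held a CArG box 58 bases before the start, which 1.47% of promoters hold. TATAAA was found in 12.4% of promoters, CCAAT in 33.8% and TGACG in 17.8%. These are matches of letters, and binding was not measured here.

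Array intensities were brought to a common distribution by quantile normalisation, since the array medians ran from 3.61 to 25.4. Signals of ribosomal RNA and of monocyte markers moved with the dose, and their part in the members' values was not tested. Before normalisation, the 18S controls had a mean log2 signal of 11.19 ± 0.94 on vehicle arrays (SD, n = 5 each group). It was 9.97 ± 0.43 on 1 mg/kg arrays and 9.42 ± 0.42 on 5 mg/kg arrays. The signal ran from 8.83 to 9.88 at 5 mg/kg and from 10.24 to 12.31 with vehicle, without overlap. A fit with this signal as a covariate therefore cannot cleanly separate it from the 5 mg/kg dose. Among 12 monocyte markers tested, 12 were lower at 5 mg/kg than with vehicle, where 49.2% of all tested probe sets were higher. In limma 1 of them passed an adjusted p of 0.05, where 0.0906% of all tested probe sets passed as lower. The mean log2 value of these markers, chosen with earlier results of these data known, lay between 6.46 and 6.70 at 5 mg/kg. With vehicle it lay between 7.32 and 8.04. Their summed intensity ran from 3405 to 4706 at 5 mg/kg and from 5860 to 8723 with vehicle, and none was at the floor on every array of a group. In bulk blood, fewer cells of a type and less RNA per cell cannot be told apart.

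Leaving out Pnrc1, 10 of the 13 other tested probe sets were higher at 5 mg/kg than with vehicle and 3 were lower, with a median log2 difference of 0.38, while the median of all 24273 tested probe sets was -0.01 and 49.2% of them were higher. Of these 13, 0 passed an adjusted p of 0.05 in limma, where 0.136% of all tested probe sets passed (0.0453% higher and 0.0906% lower). The 5 mg/kg and vehicle arrays overlapped for each of the 14, while 2.44% of all tested probe sets had no overlap (1.29% higher and 1.15% lower). At an unadjusted p under 0.05 there was 1 of 13 (Btg2), against 7.96% of all tested probe sets, and an unadjusted exact permutation p under 0.05 was also reached by 1 (the dimmer Zfp36l2 set, which was lower), against 9.19%. A set could pass the filter on dim values through signal in 1 group, and several sets share a gene, so the counts describe them and are no test.

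**Figure D1:**
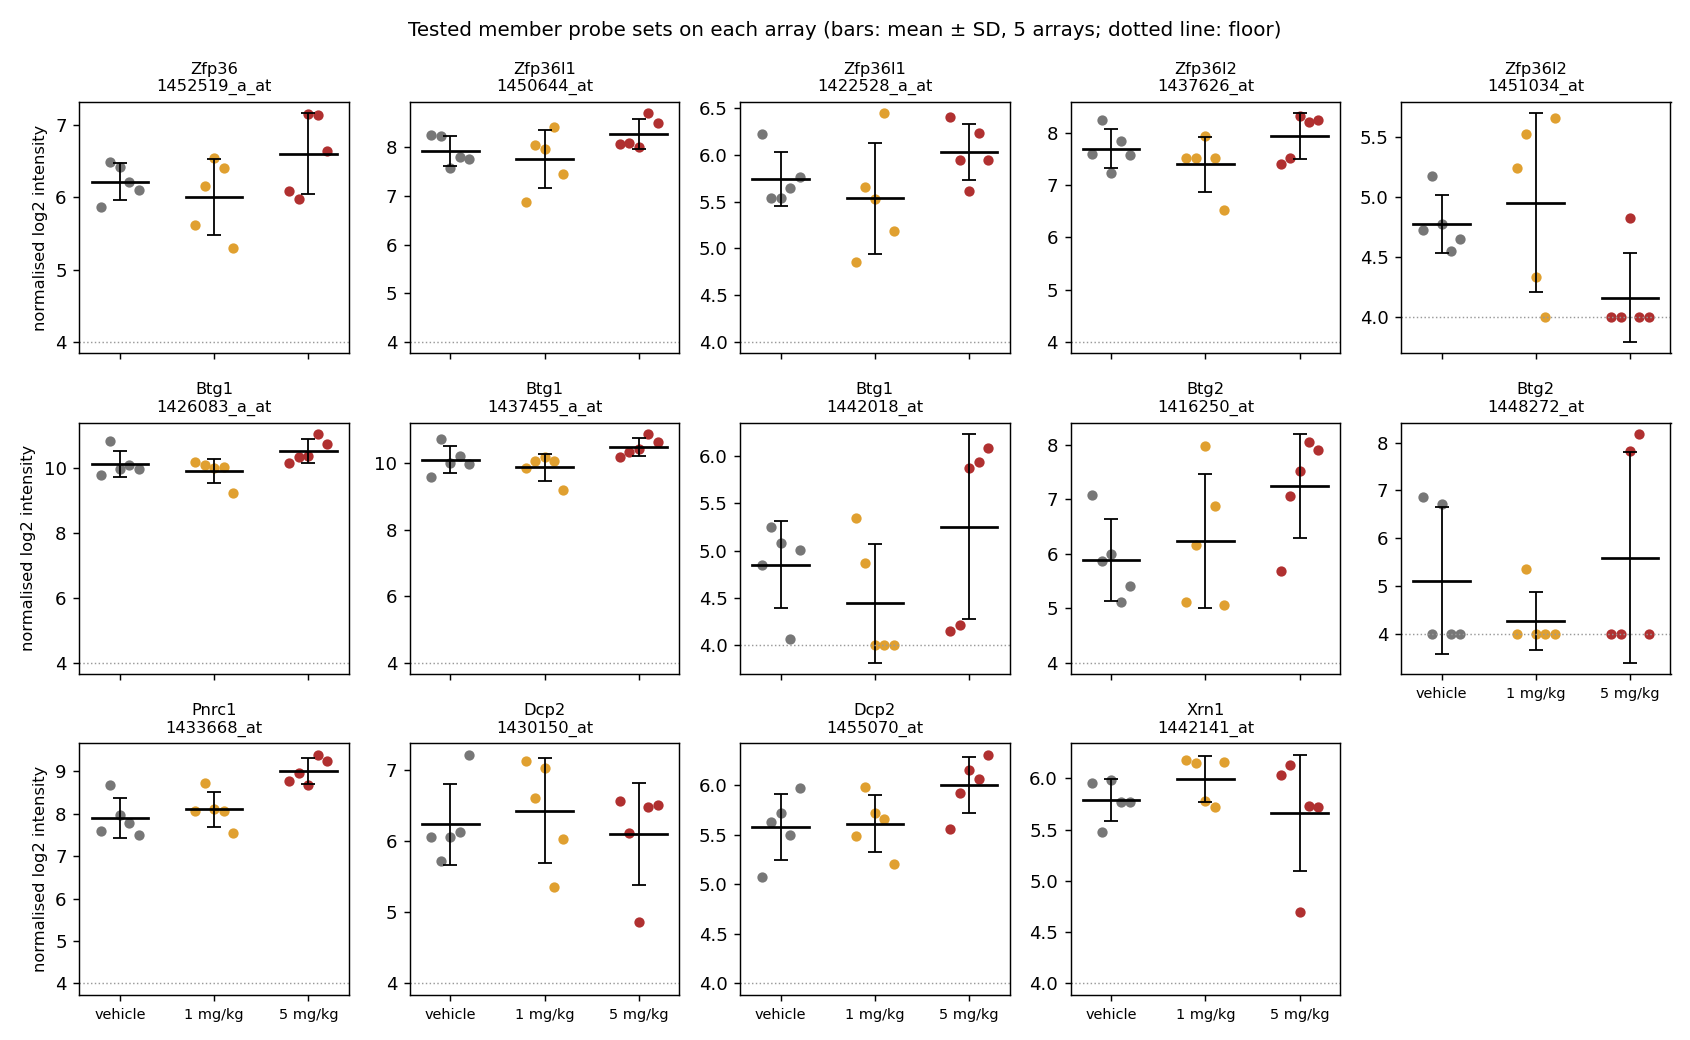
Normalised log2 intensity (vertical axis, dotted line at the floor) of the 14 tested probe sets on each array, in the groups vehicle, 1 mg/kg and 5 mg/kg; points are arrays and bars are the mean ± SD of 5 arrays. The 5 Pnrc1 values at 5 mg/kg lie near or above the highest of the other groups, with 408 under the highest vehicle value of 411 and the highest 1 mg/kg value of 423; the 5 mg/kg and vehicle points overlap in all 14 panels.

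Among the RNA-binding proteins, Zfp36, also called tristetraprolin, was measured by 1 probe set. Its normalised intensity was 58.1, 90.3, 86.0, 74.0 and 68.8 on the vehicle arrays, 49.3, 71.7, 93.3, 84.7 and 39.2 at 1 mg/kg and 67.8, 63.0, 143, 141 and 100.2 at 5 mg/kg. Of the 5 mg/kg arrays, 3 lay above every other array and 2 lay within the vehicle range. The log2 difference was 0.38 ± 0.29 (SE) at 5 mg/kg against vehicle, with a 95% interval from -0.23 to 1.00 (limma adjusted p = 0.820; 0.24 without 5 mg/kg replicate 3), and -0.21 ± 0.29 at 1 mg/kg against vehicle (adjusted p = 0.947).

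Zfp36l1, a paralogue that also binds AU-rich elements, was read by a pair of probe sets that followed each other over the arrays (Pearson r = 0.81 over 15 arrays). The brighter set (1450644_at) gave 307, 302, 192, 222 and 216 with vehicle, 118, 266, 251, 343 and 176 at 1 mg/kg and 269, 273, 256, 416 and 362 at 5 mg/kg. All 5 arrays at 5 mg/kg were above 3 of the vehicle arrays, and the groups overlapped. Its log2 difference at 5 mg/kg against vehicle was 0.35 ± 0.27 (SE; limma adjusted p = 0.823), and the dimmer set gave 0.29 ± 0.27 (adjusted p = 0.866). With the 18S signal as a covariate these were 0.80 and 0.81, not past the threshold. The level of Zfp36l1 also followed the array median before scaling, with r = 0.68 over the 15 arrays, and the part of array brightness in its values was not tested.

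Zfp36l2, the third paralogue, had 3 probe sets, and the tested pair did not run together (r = -0.38 over 15 arrays). The brightest (1437626_at) ranged from 151 to 305 with a median of 194 with vehicle, from 91.9 to 245 with a median of 184 at 1 mg/kg and from 170 to 319 with a median of 295 at 5 mg/kg. Its log2 difference at 5 mg/kg against vehicle was 0.24 ± 0.28 (SE; limma adjusted p = 0.905), and 0.12 without vehicle replicate 3. The dimmer 1451034_at went the other way, being at the floor on 4 of 5 arrays at 5 mg/kg and above it on all 5 vehicle arrays, at 23.5 to 36.3. Its log2 difference of -0.61 ± 0.30 did not pass (adjusted p = 0.658; exact two-sided permutation p = 0.0397, unadjusted), and it depends on the floor. The last set (1439054_at) was above the floor on 1 vehicle array (82.6) and 1 array at 5 mg/kg (33.4) and was not tested.

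Among the antiproliferative genes, Btg1 had a pair of bright probe sets that correlated at r = 0.96 over the 15 arrays. In 1437455_a_at the intensity was 777, 1702, 1032, 1192 and 1013 with vehicle, 938, 1069, 1158, 1085 and 585 at 1 mg/kg and 1165, 1295, 1386, 1887 and 1590 at 5 mg/kg. Every array at 5 mg/kg lay above every array at 1 mg/kg by this set, at 1165 and 1158 for the nearest arrays, while the vehicle arrays spread over both. Groups without overlap were seen in this direction for 1.03% of all tested probe sets, and in the other for 0.235% (1.27% together). In 1426083_a_at the same groups overlapped slightly, at 1128 to 2107 for 5 mg/kg and 604 to 1152 for 1 mg/kg.

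The Btg1 log2 difference between 5 and 1 mg/kg was 0.62 ± 0.24 (SE) in 1437455_a_at, a 1.53-fold difference with a 95% interval from 0.11 to 1.13 on the log2 scale. It did not pass over all tested probe sets (limma adjusted p = 0.496; exact permutation p = 0.00794, unadjusted, the smallest that 5 against 5 arrays allow). Against vehicle the same set gave 0.39 ± 0.24 at 5 mg/kg (adjusted p = 0.763) and -0.23 ± 0.24 at 1 mg/kg (adjusted p = 0.930). The dim set 1442018_at gave 0.40 ± 0.42 at 5 mg/kg against vehicle, with values of 58.7, 61.5 and 68.0 on 3 arrays and 17.7 and 18.6 on the others, against 16.7 to 38.2 with vehicle. Without 5 mg/kg replicate 5 it was 0.19, and with the 18S covariate 0.07.

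Btg2, a p53-inducible relative of Btg1, showed the largest difference from vehicle of the 13 probe sets tested beside Pnrc1. In 1416250_at the intensity was 135, 58.1, 63.5, 34.6 and 42.4 with vehicle, 34.5, 71.1, 250.4, 117 and 33.1 at 1 mg/kg and 51.6, 134, 183, 266 and 239 at 5 mg/kg. Of the 5 mg/kg arrays, 3 exceeded every vehicle array, and the spread within each group was wide. The log2 difference at 5 mg/kg against vehicle was 1.36 ± 0.56 (SE), or 2.56-fold, with a 95% interval from 0.16 to 2.55 (limma adjusted p = 0.538; exact two-sided permutation p = 0.0556, unadjusted). At 1 mg/kg against vehicle it was 0.34 ± 0.56 (adjusted p = 0.958), a value that turned to -0.09 without 1 mg/kg replicate 3, the array at 250.4. With the 18S signal as a covariate the difference at 5 mg/kg was 2.09, still not past the threshold. That signal did not overlap between the 5 mg/kg and vehicle arrays.

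The other Btg2 set, 1448272_at, was above the floor on 2 of 5 vehicle arrays (117 and 106), on 1 of 5 at 1 mg/kg (41.1) and on 2 of 5 at 5 mg/kg (227 and 290). Its log2 difference of 0.48 ± 0.88 at 5 mg/kg against vehicle therefore rests on few arrays (limma adjusted p = 0.945). Both sets are annotated with the same gene ID, and their values correlated at r = 0.45 over the 15 arrays.

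Pnrc1 was the member added for its rise and is described here only. In 1433668_at the intensity was 193, 411, 251, 220 and 181 with vehicle, 267, 423, 277, 268 and 188 at 1 mg/kg and 436, 499, 408, 673 and 609 at 5 mg/kg. Of the 5 mg/kg arrays, 4 lay above all vehicle and all 1 mg/kg arrays, and the lowest, at 408, lay just under 1 vehicle array at 411 and 1 array of 1 mg/kg at 423. The mean log2 value was 9.01 ± 0.31 at 5 mg/kg and 7.91 ± 0.47 with vehicle (SD, n = 5 each), a 2.15-fold difference, and leaving out each of these 10 arrays in turn kept the log2 difference between 1.00 and 1.30. The 1 mg/kg mean was 8.10 ± 0.41 (SD, n = 5), which is 0.20 above vehicle on the log2 scale, a difference of 0.04 without 1 mg/kg replicate 2 and 0.39 without vehicle replicate 2. Ranked by signed log2 difference, 5 mg/kg against vehicle, Pnrc1 was at place 188 of 24273 tested probe sets. Its other probe sets, 1438524_x_at and 1439513_at, were at the floor on all 15 arrays and on 14 of 15 arrays, so they give no second reading of this value.

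Of the enzymes that finish decay, Dcp2, the decapping hydrolase, had a pair of tested probe sets that did not vary together over the arrays (r = 0.01 over 15 arrays). In 1455070_at the intensity was 33.6, 49.4, 52.6, 45.3 and 62.6 with vehicle, 45.01, 63.1, 52.8, 50.5 and 36.8 at 1 mg/kg and 47.1, 60.5, 71.2, 67.1 and 79.2 at 5 mg/kg. Of the 5 mg/kg arrays, 3 were above all others, and the log2 difference from vehicle was 0.42 ± 0.21 (SE; 95% interval -0.02 to 0.87; limma adjusted p = 0.661). The other set, 1430150_at, gave -0.13 ± 0.40 (adjusted p = 0.974), ranging from 29.0 to 94.998 with a median of 88.8 at 5 mg/kg, against 52.9 to 148 with a median of 66.9 with vehicle. With the 18S covariate these became 0.08 and -0.94. A statement on the direction of Dcp2 thus depends on the probe set.

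Xrn1, the 5′ to 3′ exoribonuclease, was measured by 1442141_at at 62.2, 44.5, 63.5, 54.5 and 54.5 with vehicle, 72.5, 70.9, 54.8, 52.8 and 71.3 at 1 mg/kg and 65.4, 70.0, 26.0, 53.2 and 52.9 at 5 mg/kg. Apart from 1 low array at 5 mg/kg the groups lay in overlapping ranges. The log2 difference at 5 mg/kg against vehicle was -0.13 ± 0.24 (SE), with a 95% interval from -0.64 to 0.39 (limma adjusted p = 0.948), and it became 0.11 without that array, 5 mg/kg replicate 3. The second set, 1450308_a_at, was above the floor on 3 of the 15 arrays, at 19.3 to 21.7, and was not tested.

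**Figure D2:**
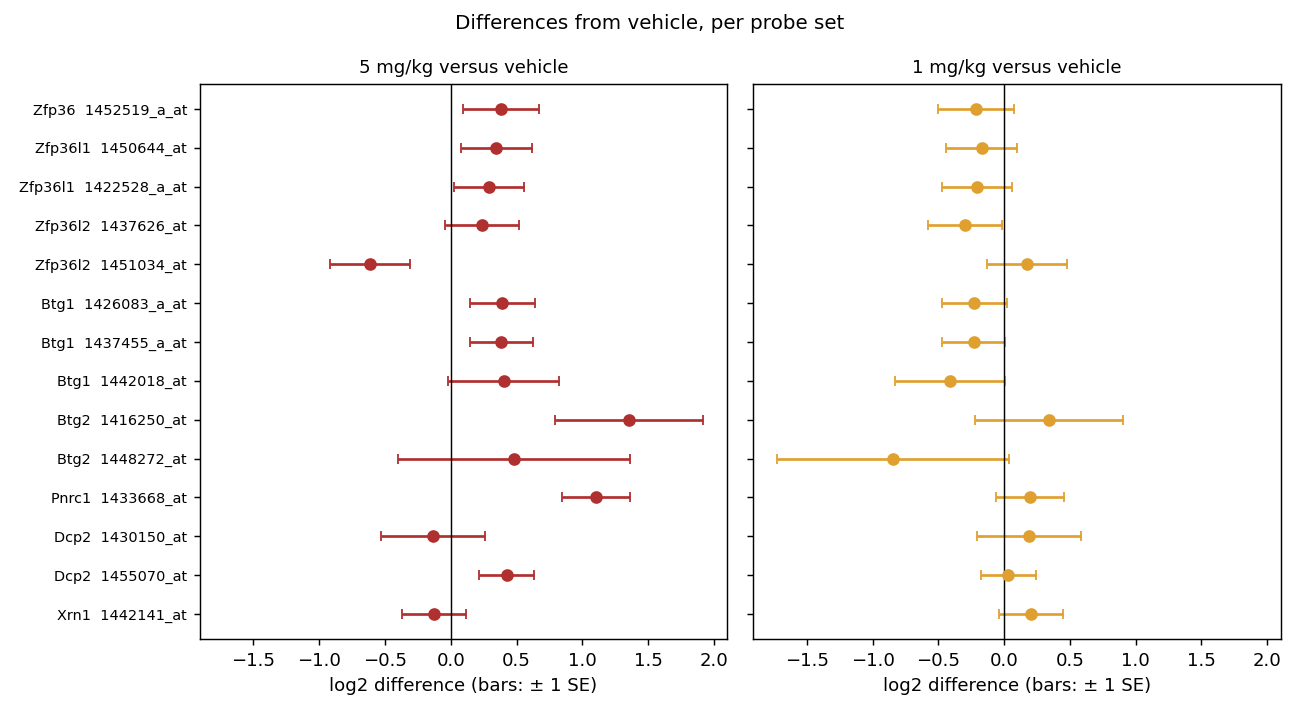
Log2 difference from vehicle (horizontal axis, bars ± 1 SE) of the 14 tested probe sets at 5 mg/kg (left) and 1 mg/kg (right). Btg2 1416250_at at 1.36 and Pnrc1 at 1.10 stand furthest right at 5 mg/kg, while at 1 mg/kg 8 of 14 points are below 0.

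At the lower dose the direction was mixed. Of the 13 probe sets beside Pnrc1, 5 were higher at 1 mg/kg than with vehicle and 8 were lower, with a median log2 difference of -0.21 beside -0.02 for all tested probe sets, 47.3% of which were higher. In limma 0 of the 13 passed, against 0.00824% of all tested probe sets, and 0 of 13 had an unadjusted p under 0.05, against 5.8%. By the exact permutation test 0 of 13 had one, against 4.81%. The 1 mg/kg and vehicle arrays overlapped for each of the 14, while 0.865% of all tested probe sets had no overlap (0.19% higher and 0.676% lower). The bright sets of Zfp36, Zfp36l1, Zfp36l2 and Btg1 had log2 differences of -0.21 ± 0.29, -0.17 ± 0.27, -0.30 ± 0.28 and -0.23 ± 0.25 (SE). Both doses were set against the same vehicle arrays.

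Between the doses, 10 of the 13 probe sets beside Pnrc1 were higher at 5 mg/kg than at 1 mg/kg, with a median log2 difference of 0.54 beside 0.00 for all tested probe sets. In limma 0 of 13 passed, as did 0% of all 24273 probe sets. At an unadjusted p under 0.05 there were 3 of 13, the bright pair of Btg1, which was higher, and Zfp36l2 1451034_at, which was lower, against 8.66% of all tested probe sets. The exact permutation test gave 2, both Btg1, against 6.92%. The Zfp36 difference was 0.60 ± 0.29 (SE; limma adjusted p = 0.595), Zfp36l1 0.52 ± 0.27 (adjusted p = 0.626), Zfp36l2 0.54 ± 0.28 in its brightest set (adjusted p = 0.625) and -0.79 ± 0.30 in 1451034_at (adjusted p = 0.492), and Btg2 1.01 ± 0.56 (adjusted p = 0.652). Pnrc1 was 0.91 higher on the log2 scale. Replicate 5 was the lowest 1 mg/kg array for Zfp36, the brightest Zfp36l2 set, both bright Btg1 sets, Btg2 1416250_at, Pnrc1 1433668_at and Dcp2 1455070_at. Without it the Btg1 difference in 1437455_a_at was 0.44 and that of the brightest Zfp36l2 set 0.32, and without 1 mg/kg replicate 1 that of Zfp36l1 1450644_at was 0.30.

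Over the 15 arrays some of the members varied together. Taking the brightest tested probe set of each gene, Zfp36l2 correlated with Btg1 at r = 0.84 and with Zfp36 at 0.82, and Btg1 with Pnrc1 at 0.82. With each group's mean removed these were 0.79, 0.77 and 0.85, so the covariation was also seen among mice of the same group. For each of these genes, replicate 5 was the lowest 1 mg/kg array and replicate 2 the highest vehicle array. The values with group means removed were not recomputed without those arrays. Xrn1 ran against Zfp36 (r = -0.74) and Zfp36l2 (-0.69), and Dcp2 in 1430150_at lay between -0.33 and -0.05 with the other members except Xrn1 (0.60). These Dcp2 and Xrn1 sets were both at their lowest on 5 mg/kg replicate 3, at 29.0 and 26.0. Dcp2 1455070_at was at 71.2 on that array, and the value of 0.60 was not recomputed without it. These correlations share the arrays and their normalisation and are given without a test.

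**Figure D3:**
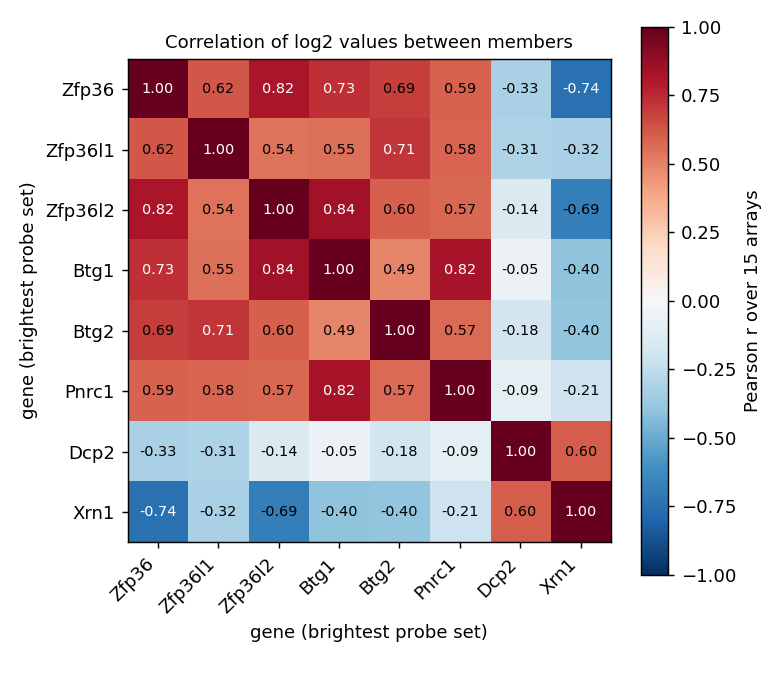
Pearson correlation of log2 values over 15 arrays between the brightest tested probe sets of the 8 genes (both axes: genes; colour: r from -1 to 1). The 6 genes from Zfp36 to Pnrc1 form a block of positive values, and the rows of Dcp2 and Xrn1 are mostly below 0.

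The levels of Btg1, Pnrc1, Zfp36l2 and Zfp36 moved with B cell markers. The mean log2 value of 11 B cell markers, among them Cd79a and Ms4a1, correlated over the 15 arrays with Btg1 at r = 0.90, with Pnrc1 at 0.79, with Zfp36l2 at 0.76 and with Zfp36 at 0.73. With group means removed these were 0.84, 0.76, 0.70 and 0.63. The B cell list was at its lowest of the 15 arrays on 1 mg/kg replicate 5 (5.66). Among vehicle arrays it was highest on replicate 2 (7.44). On those arrays Btg1, Pnrc1, Zfp36l2 and Zfp36 were likewise lowest and highest within their groups. The correlations were not recomputed without them. Such correlations were not particular to B cells, as T cell markers also followed Btg1, Pnrc1 and Zfp36l2. With group means removed, neutrophil markers correlated with Zfp36 at 0.61 and with Zfp36l2 at 0.52, and monocyte markers with Zfp36l2 at 0.58. Without that removal these values were 0.44, 0.44 and 0.06. The B cell list averaged 6.71 ± 0.43 on vehicle arrays, 6.52 ± 0.53 on 1 mg/kg arrays and 7.19 ± 0.36 on 5 mg/kg arrays (SD, n = 5 each). Of its 11 markers 9 were higher at 5 mg/kg than with vehicle, none past the threshold, and their summed intensity ran from 1479 to 3968 on vehicle arrays, from 794 to 3048 at 1 mg/kg and from 2671 to 5825 at 5 mg/kg. None was at the floor on every array of a group.

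T cell markers, 10 of them tested, correlated with Zfp36l2 at r = 0.80, with Btg1 at 0.78 and with Pnrc1 at 0.70. With group means removed the values were 0.73, 0.68 and 0.69. The T cell markers averaged 7.38 ± 0.31 at 5 mg/kg, against 7.16 ± 0.27 with vehicle (SD, n = 5 each). Of the 10 tested, 7 were higher and 3 lower at 5 mg/kg than with vehicle, and 0 passed the threshold. Summed intensities were 1828 to 3049 at 5 mg/kg and 1712 to 2440 with vehicle. Cd4 was at the floor on every array of both groups and Cd6 on every vehicle array. The B cell list correlated with Btg2 at 0.40 and with Xrn1 at -0.44. The mean of 6 erythroid markers ran the other way, at r = -0.67 with Btg1, -0.61 with Zfp36l2, -0.60 with Zfp36 and -0.45 with Pnrc1. That list averaged 9.26 ± 0.60 at 5 mg/kg and 9.44 ± 0.32 with vehicle (SD, n = 5 each), with 5 of 6 markers lower and summed intensities of 13259 to 16287 at 5 mg/kg and 15605 to 17390 with vehicle, and none was at the floor throughout a group. The part of blood cell composition in the members' values was not tested.

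**Figure D4:**
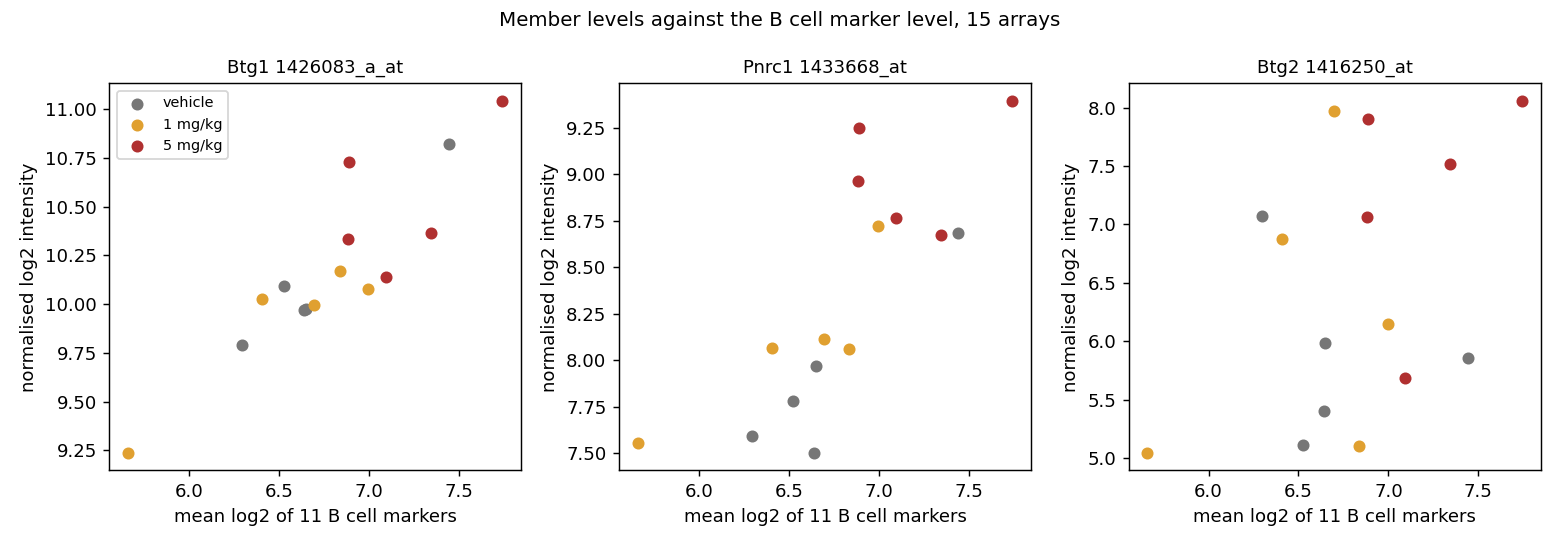
Normalised log2 intensity of Btg1, Pnrc1 and Btg2 (vertical axes) against the mean log2 value of 11 B cell markers (horizontal axes), 1 point per array, coloured by group. Btg1 and Pnrc1 rise with the marker level (r = 0.90 and 0.79), and Btg2 is more scattered (r = 0.40).

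For each member, the 2 other genes with the most similar pattern over the 15 arrays were looked up among 9793 or 9794 probe sets of named genes at or above the median level. Btg1 was closest to the transcription factor gene Ets1 (r = 0.94) and to Twf2 (0.93), and Pnrc1 to the splicing factor gene Srsf5 (0.94) and the ribosomal protein gene Rps20 (0.93). Zfp36 was closest to Fbxw11 (0.94) and Smurf2 (0.93), Zfp36l1 to Arcn1 (0.95) and Med14 (0.94), and Zfp36l2 to Agfg1 (0.94) and Eif3f (0.93). Lower values were reached for Btg2 with Srpk1 (0.87) and Ermp1 (0.84), for Xrn1 with Foxf1 (0.90) and Cd209c (0.87) and for Dcp2 with Tmem171 and Fam71f1 (0.82 and 0.81). The highest of so many correlations is large by selection.

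The rest of the decay machinery, in 5 lists of 76 genes, had 60 tested, each by its brightest probe set. At 5 mg/kg against vehicle 28 were higher and 32 lower, with a median log2 difference of -0.01, and 0 passed in limma (4 at an unadjusted p under 0.05, or 6.67%, against 7.96% of all tested probe sets). The 14 deadenylation genes tested had a median of 0.02, the 13 partners of decapping and 5′ to 3′ decay -0.18, the 11 exosome and SKI genes 0.02, the 7 genes of nonsense-mediated decay 0.22 and 15 other decay and stability factors -0.03. Dcps, the scavenger decapping enzyme, was at -0.59 ± 0.20 (SE; limma adjusted p = 0.397), Upf2, a core nonsense-mediated decay factor, at 0.55 ± 0.25 (adjusted p = 0.592) and Hnrnpd, an AU-rich element binder, at -0.65 ± 0.25 (adjusted p = 0.494). A second Dcps set gave -0.26, a second Upf2 set -0.08 and a second Hnrnpd set -0.55. Zc3h12d, a member of the regnase family, was at -0.48 ± 0.20 (adjusted p = 0.534), with all 5 mg/kg arrays below all vehicle arrays, as for 1.15% of all tested probe sets. Tia1, which binds AU-rich elements and forms stress granules, was at -0.35 ± 0.24 in its brightest set, while its 4 other tested sets lay between 0.17 and 0.60.

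Within the CCR4-NOT complex, which the Zfp36 and Btg proteins contact, the scaffold-binding subunit genes Cnot2 and Cnot9 were at 0.48 ± 0.25 and 0.43 ± 0.29 (SE; limma adjusted p = 0.681 and 0.793) at 5 mg/kg against vehicle, with other Cnot2 sets at 0.19 and 0.10. Cnot3 was at 0.70 ± 0.41 in its brighter set (adjusted p = 0.742) and at -0.77 ± 0.27 in the other (adjusted p = 0.403), so its probe sets disagreed in sign. Among exosome genes, Exosc8 was at 0.37 ± 0.30 and Exosc2 at -0.45 ± 0.46 (adjusted p = 0.835 and 0.882). Smg1, the kinase of nonsense-mediated decay, was at 0.35 ± 0.20 (adjusted p = 0.718). The decapping partner genes Lsm2 and Edc3, the SKI complex gene Ttc37 and the endonuclease gene Smg6 were at -0.38 ± 0.29, -0.32 ± 0.26, -0.23 ± 0.25 and -0.35 ± 0.30. Other Smg6 sets gave 0.30 and -0.16, other Exosc8 and Exosc2 sets 0.21 and -0.03. Relative to vehicle, at the lower dose 12 of the 14 deadenylation genes were lower, with a median of -0.21, where 47.3% of all tested probe sets were higher. In limma 0 passed the threshold and 2 had an unadjusted p under 0.05, against 5.8% of all. Between the doses, 13 of the 14 were higher at 5 mg/kg than at 1 mg/kg, against 50% of all, so the same 1 mg/kg arrays enter both counts.

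Further lists held relatives of the Btg genes with other cell cycle brakes, and targets of the Zfp36 family. Tob1, of the same BTG/TOB family and likewise a partner of the CCR4-NOT deadenylases, had the largest difference of the genes named from all lists. Its intensity was 76.7, 99.4, 48.4, 56.1 and 35.0 with vehicle, 44.9, 106, 111, 176 and 89.9 at 1 mg/kg and 145, 128, 181, 161 and 217 at 5 mg/kg. Every array at 5 mg/kg lay above every vehicle array, as for 1.29% of all tested probe sets, and the 1 mg/kg arrays lay across both. The log2 difference at 5 mg/kg against vehicle was 1.47 ± 0.33 (SE; limma adjusted p = 0.131), and at 1 mg/kg against vehicle 0.70 ± 0.33 (adjusted p = 0.863). Of the 16 genes tested in its list of BTG and TOB relatives and cell cycle brakes, 10 were higher and 6 lower at 5 mg/kg, with a median of 0.13. Of all tested probe sets 49.2% were higher. In limma 0 of the 16 passed the threshold, against 0.136% of all tested probe sets. Tob1 and Rbl2 were the 2 at an unadjusted p under 0.05, against 7.96% of all. The pocket protein gene Rbl2 was at 0.44 ± 0.20 (limma adjusted p = 0.616). Klf2, a quiescence factor of T cells, was at 0.52 ± 0.25 (limma adjusted p = 0.635) and was not under 0.05 unadjusted.

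Known targets of the Zfp36 family, mostly cytokine and immediate-early transcripts, were often too dim, and 9 of 18 were tested. At 5 mg/kg against vehicle 6 were higher and 3 lower, with a median of 0.15, where 49.2% of all tested probe sets were higher. In limma 0 passed the threshold, against 0.136% of all, and 0 had an unadjusted p under 0.05, against 7.96%. Il1b was at -0.45 ± 0.22 (SE; adjusted p = 0.643), the chemokine gene Ccl2 at -0.49 ± 0.28 (adjusted p = 0.724) and the phosphatase gene Dusp1 at 0.55 ± 0.30 (adjusted p = 0.717). Il1b at 1 mg/kg against vehicle was at -0.56 ± 0.22 (adjusted p = 0.824), with no overlap between the groups, as for 0.676% of all tested probe sets in this direction. Il1b is expressed by monocytes and neutrophils, whose marker lists had lower means after either dose. The neutrophil list averaged 6.37 ± 0.51 at 5 mg/kg and 6.79 ± 0.22 with vehicle (SD, n = 5 each). That list held 11 tested markers, 10 of them lower, with summed intensities of 1001 to 3865 at 5 mg/kg and 2607 to 3951 with vehicle and Camp at the floor on every array of both groups, and its part in the Il1b value was not tested.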

How the data were processed

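Whole-blood RNA of 15 mice (200 ng each) was hybridised to Affymetrix 3' arrays, per the labels' protocols. The deposited values are linear probe set intensities, some negative, as judged from the values themselves; the authors' array software is not given in the sources used here. Because arrays differed in scale, the 64 control probe sets were dropped, the rest quantile-normalised, floored at 16 and log2-transformed. Of all values, 52.7% lay at the floor, which shrinks differences of dim sets, and 24273 sets above it on at least 5 arrays were tested. Genes come from the platform annotation, which can be old: 34945 sets list 1 gene, 932 several and 9160 none.

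Differences were tested two-sided in limma 3.58.1 under R 4.3.3, in a single model of all arrays (12 residual and 3.94 prior degrees of freedom, median SE 0.283), adjusting by Benjamini-Hochberg over all tested sets at 0.05, and by exact permutation over 126 splits. The number of arrays limits the precision. The code was tested on simulated data. Members, gene lists and settings were chosen with earlier results of these data known. Named genes beyond the members are, per list, those past the threshold and the 3 of smallest p at 5 mg/kg, and each member's 2 closest genes. The alternatives were other or no scaling, floor, filter, 1 set per gene, trend and robust fitting, array weights, 2 groups only, the replicate number as a block, an 18S covariate and leaving out each array. Sequences are from RefSeq. All value columns were mapped to samples.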

Additional observations from a re-analysis of the deposited data

Results flagged for a closer look

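Dixon's criterion (0.71 for 5 samples) was used to find single arrays far from their group. Chance meets it for about 1 in 20 groups of normally distributed values. That rate does not hold where values are set to the floor. Of the 54 combinations of probe set and group, 7 had no spread. In 10 others a single array stood far from the other 4 of its group. Of these, 6 were dim probe sets with 1 array above the floor of 16 and the other 4 at it: Zfp36l2 1451034_at at 28.4 and Zfp36l2 1439054_at at 33.4 on 5 mg/kg replicate 3, Zfp36l2 1439054_at at 82.6 on vehicle replicate 3, Btg2 1448272_at at 41.1 on 1 mg/kg replicate 2, Pnrc1 1439513_at at 41.3 on 1 mg/kg replicate 3 and Xrn1 1450308_a_at at 21.1 on 5 mg/kg replicate 2.

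Btg1 1426083_a_at was low on 1 mg/kg replicate 5, at 604 against 1021 for the nearest array of its group. Dcp2 1430150_at was low on 5 mg/kg replicate 3, at 29.0 against 69.0, and high on vehicle replicate 5, at 148.5 against 69.8. Xrn1 1442141_at was low on 5 mg/kg replicate 3, at 26.0 against 52.9. Of the 10, 4 were on 5 mg/kg replicate 3.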

How the results depend on the processing

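The count of 0 members past the threshold beside Pnrc1 held in each of the 3 comparisons under all 10 alternatives and without each array in turn (range 0 to 0). Pnrc1 at 5 mg/kg against vehicle stayed between 1.10 and 1.30 under the alternatives other than leaving out arrays, and Btg2 1416250_at between 1.34 and 2.09, the highest with the 18S covariate (lowest adjusted p in any run 0.296). The differences from vehicle whose signs turned were small or imprecise. At 5 mg/kg Dcp2 1430150_at became 0.0102 and Xrn1 0.0478 without scaling, where the median of all probe sets moved to 0.12, so both stayed below that median. Leaving out arrays gave -0.26 to 0.18 for that Dcp2 set and -0.25 to 0.11 for Xrn1. At 1 mg/kg Btg1 1442018_at became 6e-04 with a floor of 32, and with the 18S covariate Zfp36l1 became 0.14 and 0.15 in its 2 sets and Dcp2 -0.37 and -0.20. Leaving out arrays at 1 mg/kg gave -0.33 to 0.0498 for Zfp36l1 1450644_at, -0.0918 to 0.64 for Btg2 1416250_at and -0.093 to 0.14 for Dcp2 1455070_at. With the 18S covariate at 5 mg/kg Zfp36l1 became 0.80 and 0.81, Dcp2 1455070_at 0.08 and 1430150_at -0.94, and Btg1 1442018_at 0.07. Leaving out arrays at 5 mg/kg gave 0.24 to 0.54 for Zfp36, 0.12 to 0.38 for Zfp36l2 1437626_at and 0.19 to 0.68 for Btg1 1442018_at. The cause was not tested. The 18S signal did not overlap between 5 mg/kg and vehicle arrays, so values with it as a covariate do not cleanly separate it from dose.

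Over all probe sets, 33 passed at 5 mg/kg against vehicle (11 higher), and 4 without scaling (0 higher), 73 with a floor of 32 (35 higher), 11 with 1 set per gene, 95 with array weights (44 higher), 0 with the 18S covariate and 15 to 41 without 1 array, the lowest without 5 mg/kg replicate 5 (15) and without vehicle replicates 1, 4 and 3 (18, 19 and 21). At 1 mg/kg 2 passed, and 10 with a floor of 32, 1 with 1 set per gene, 0 without scaling, with a filter of 1 array, with 2 groups only and with the 18S covariate, and 0 to 7 without 1 array. Between doses 0 passed, and 1 with array weights and 0 to 1 without 1 array. With the replicate number as a block, 28 passed at 5 mg/kg, 0 at 1 mg/kg and 0 between doses, with 0 members in each. The labels do not say that a number pairs mice, and same-numbered arrays did not deviate together (correlations -0.27 to 0.32, 3 of 15 over 0.1). Some dim sets left the test in some settings, Btg2 1448272_at among them. Intensity over background limits all sets near the floor.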
